A study of Arabidopsis thaliana with 12 samples.

Results

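The comparison set Arabidopsis thaliana leaves labelled ago1-27 and submerged (3 arrays) against leaves labelled wild type and submerged (3 arrays), 6 of the 12 Affymetrix ATH1 arrays of the study. ago1-27 is a hypomorphic mutant of ARGONAUTE1, so some function of the protein remains, and the wild type was Col-0. Both groups shared the treatment: plants 4 weeks old spent 12 h in darkness with the water standing 10 cm over the leaves, and each replicate was a pool of 4 plants. The other 6 arrays, 3 labelled ago1-27 and 3 labelled wild type, came from leaves kept in the dark for 12 h without submergence. Members were the probe sets with a signal above the 40th percentile of the array on at least 3 of the 12 arrays, 14812 of 22810. Differences are given on the log2 scale as ago1-27_submerged minus WT_submerged with the standard error of the fit, signals are MAS5 signals in arbitrary linear units listed by replicate 1, 2 and 3, and a probe set was called at a Benjamini-Hochberg adjusted p under 0.05 from limma. The annotation names 1 gene for 13523 probe sets and none for AGO1, so the mutated gene itself could not be checked.

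ARGONAUTE1 is the main plant protein that loads microRNAs and uses them to cut or repress complementary transcripts, many of which encode transcription factors of development. Submergence slows the entry of oxygen into leaves, and a well-known set of genes for fermentation, signalling and unknown functions then rises under control of oxygen-sensitive transcription factors. Darkness adds the loss of photosynthetic carbon gain, which draws on starch, protein and lipid reserves.

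The low-oxygen genes parted the groups, although both carry the label submerged. Of the 17 low-oxygen genes measured, 16 were called lower on the arrays labelled ago1-27 and submerged and 0 higher, with a median log2 difference of -4.72; 17.8% of all probe sets tested were called lower. PDC2, a pyruvate decarboxylase of ethanol fermentation, read 91.7, 128 and 236 on the ago1-27_submerged arrays, against 2231, 3304 and 2600 on the WT_submerged arrays. The calmodulin-like gene CML38 read 29.7, 18.9 and 34.1 against 4849, 4494 and 5114. HRA1 (AT3G10040), a trihelix factor that dampens the low-oxygen response, read 53.3, 48.5 and 237 against 4699, 4022 and 4019. No array of either group overlapped the other for these 3 genes. The arrays labelled dark were parted in the same way, with 16 of 17 called lower on the arrays labelled ago1-27 and a median of -4.65, where 20.8% of all probe sets were called lower. An exchange of group labels is therefore possible, and the comparison described here may be a contrast of submergence rather than of genotype. The 2 readings cannot be told apart with these groups, and every group name below is the name on the label.

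**Figure D1:**
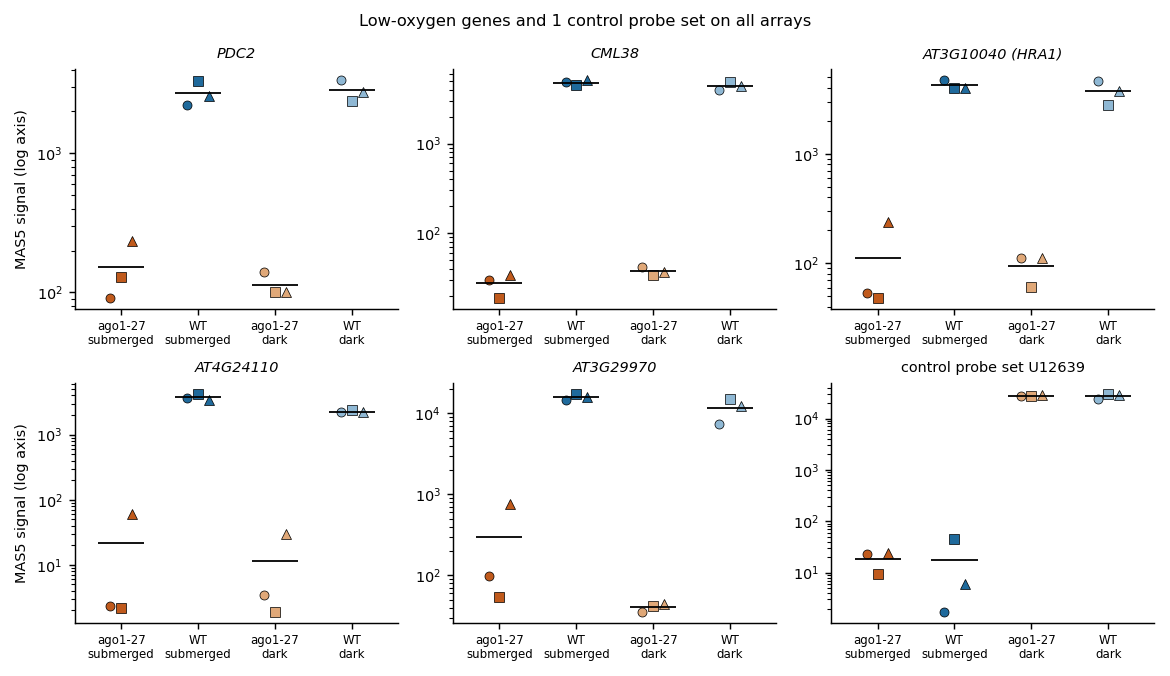
MAS5 signal (log axis) of 5 low-oxygen genes and of the control probe set U12639 on each of the 12 arrays, by labelled group; circles, squares and triangles are replicates 1, 2 and 3, and black lines are means. The 5 genes are low on all arrays labelled ago1-27 and high on all labelled wild type in both treatments, whereas U12639 lies at 44.7 or below on the submerged arrays and at 24471 or above on the dark arrays.

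Array 3 of ago1-27_submerged and array 1 of WT_dark stood apart from their replicates: the first correlated with its replicates at 0.932 and 0.938, against 0.976 between the other two, and their fitted array weights were 0.247 and 0.256. Controls of RNA quality moved with the comparison. GAPDH probe sets at the 3' and 5' ends of the transcript gave a ratio of 1.97 ± 0.261 in ago1-27_submerged and 1.29 ± 0.0648 in WT_submerged, and that of actin 11.4 ± 0.989 and 6.3 ± 0.63 (SD, n = 3 each; two-sided exact permutation p = 0.1 for each, the smallest that 20 splits allow, 0.133 adjusted over 4 controls). The ubiquitin ratio was 3.27 ± 0.328 and 2.83 ± 0.204 (exact p = 0.3), and the 25S ribosomal RNA signal 8322 ± 1698 and 17395 ± 1257 (exact p = 0.1). Their part in the differences below was not tested. All 8 nuclear photosystem and antenna probe sets that mark leaf tissue lay above the 40th percentile on every array. Of 44 flower and pollen genes named on the array, 9 passed the filter, and the summed signal of all their probe sets was 4204 to 4682 in ago1-27_submerged and 5245 to 5737 in WT_submerged. Root and seed markers (2 of 6 genes kept) summed to 510 to 1809 (median 514) and 260 to 410 (median 349). The top of the first range thus lay far above its middle array. Guard cell and trichome markers (2 of 4 kept) summed to 572 to 641 and 236 to 327. In RNA of whole leaves, fewer cells of a type and less RNA per cell cannot be told apart.

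**Figure D2:**
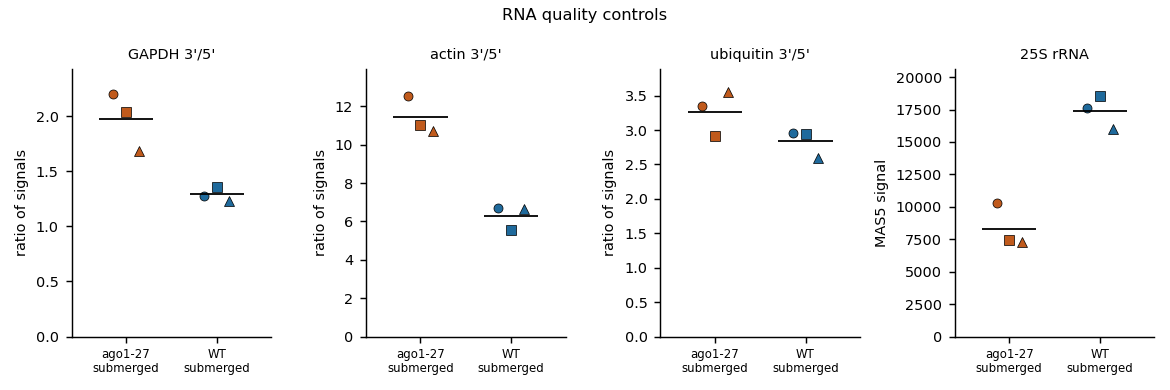
Ratio of 3' to 5' probe set signals of GAPDH, actin and ubiquitin, and MAS5 signal of 25S ribosomal RNA, on the 3 ago1-27_submerged arrays (left in each panel) and the 3 WT_submerged arrays; black lines are means. The GAPDH and actin ratios are higher and the 25S signal lower on every ago1-27_submerged array than on any WT_submerged array.

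In all, 6591 of 14812 probe sets (44.5%) were called: 3956 (26.7%) higher on the ago1-27_submerged arrays and 2635 (17.8%) lower. At a 2-fold difference or more, 1666 (11.2%) were called higher and 1372 (9.26%) lower. These folds are fitted values; with a group under the 40th percentile on all its arrays entered at its bound, 1434 (9.68%) and 1193 (8.05%) reached 2-fold, and 14 (0.0945%) higher and 184 (1.24%) lower reached 8-fold. The arrays of the groups did not overlap for 56.4% of all probe sets. Genes named by rule from the lists were picked among called probe sets without overlap, so their lack of overlap adds no support. Over all probe sets the median log2 difference was 0.17, and the direction of the calls depends on the scaling: 60% of calls were higher with the signals as deposited and 42.0% with every array set to a common median, which moved the median difference by -0.21. Small differences in either direction are therefore to be read against 0.17, and list medians after centring are given where they change sign, as they did for 12 of 45 lists. The lists below hold the genes that the annotation names, not whole pathways. Their counts of calls are to be read against the 26.7% higher and 17.8% lower over all probe sets.

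The transcripts regulated by microRNAs showed no common shift. Of 7 measured microRNA targets, 2 were called higher and 1 lower, and the median was 0.05 (-0.15 after median centring). Without the 2 arrays that stood apart, 2 were called higher and 3 lower. SNZ, an AP2-type repressor of flowering controlled by the miR172 family, read 160, 154 and 146 in ago1-27_submerged, against 37.7, 39.1 and 65.7 in WT_submerged. Since all 3 WT_submerged values were under the 40th percentile of their arrays, SNZ was at least 1.79-fold higher (fitted log2 difference 1.74 ± 0.47, adjusted p = 0.01). PHV, a leaf polarity factor controlled by the miR165/166 family, read 539, 602 and 950 against 321, 275 and 328, a log2 difference of 1.14 ± 0.22 (adjusted p = 0.0013). AGL16, a MADS-box factor, went the other way, with 344, 374 and 254 against 552, 519 and 411 (-0.62 ± 0.16, adjusted p = 0.0076). For these 3 genes the arrays of the groups did not overlap. CCS, the copper chaperone of superoxide dismutase, differed by 0.05 and the ATP sulfurylase genes APS3 and APS4 by -0.73 and 0.28, none of them called. Of 6 measured small RNA genes (median 0.11; -0.09 after centring), 1 was called, DDL, which acts in microRNA biogenesis (-0.66 ± 0.16, adjusted p = 0.0054; 423 ± 38.2 in ago1-27_submerged and 670 ± 79 in WT_submerged). SE and TGH, which also act in microRNA processing, differed by 0.17 and 0.05 and were not called.

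Nuclear genes of the photosynthetic apparatus were higher on the ago1-27_submerged arrays. Of 8 measured genes of the photosystems and antenna, 7 were called higher and 0 lower, with a median log2 difference of 1.03 against 0.17 over all probe sets. LHCB4.2, a minor antenna protein of photosystem II, read 24231, 22588 and 19710 in ago1-27_submerged, against 8396, 6724 and 7323 in WT_submerged (1.57 ± 0.22, adjusted p = 0.00016). The groups did not overlap. PSAN, a subunit of photosystem I, averaged 16410 ± 2653 and 6375 ± 530 (SD, n = 3 each; log2 difference 1.35 ± 0.16). LHCB4.3 and LHCB4.1 were higher by 1.19 and 1.07, PSBW and PSBY of photosystem II by 0.98 and 0.80, and PSAE-1 of photosystem I by 0.56. PGRL1B, of cyclic electron flow, differed by 0.14 and was not called. PSAE-1 was not called after median centring (adjusted p = 0.086).

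Pigment synthesis moved partly with the antenna. Among 9 measured genes of chlorophyll and carotenoid synthesis, 5 were called higher and 0 lower (median 0.70). After median centring 4 were called higher and 1 lower. After quantile normalization, and also without the 2 arrays that stood apart, the counts were 5 and 1. The uroporphyrinogen decarboxylases HEME2 and HEME1 were higher by 1.44 ± 0.21 and 1.36 ± 0.21, the magnesium chelatase subunit CHLI2 by 1.34 ± 0.21, the methyltransferase CHLM by 0.95 ± 0.14 and the lycopene cyclase LYC by 0.70 ± 0.19. CHLM, the most strongly hybridised of these, read 10337, 10837 and 8214 against 5379, 5167 and 4627. The groups did not overlap for any of the 5. HEMA2, a glutamyl-tRNA reductase at the head of the pathway, differed by -0.87 and was not called, nor were GSA1 (0.03), HEMB1 (0.12) and PORB (0.35). LYC was not called after median centring (adjusted p = 0.083).

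Of 9 measured nuclear genes in the list of plastid RNA handling and translation, 5 were called higher and 0 lower. The median was 0.70, or 0.64 with bounds in place of signals under the limit. After quantile normalization 3 were called higher and 0 lower. CRR21, which edits transcripts of the plastid NDH complex, read 315, 351 and 266 in ago1-27_submerged, against 106, 76.9 and 112 in WT_submerged (1.67 ± 0.24, adjusted p = 0.00018). CRR42 and CRR41, needed for assembly of the same complex, were higher by 1.36 ± 0.23 and 0.95 ± 0.23. CRR28, another editing factor, was at least 1.56-fold higher. OTP70, a splicing factor, was higher by 0.61. CRR22 differed by 0.19, and OTP43, which the list took up by its name alone, by -0.12, neither called. CRR28 and OTP70 lost their calls under some alternatives, with an adjusted p of up to 0.067 without array 2 of WT_submerged and up to 0.16 after quantile normalization.

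The plastid genome's own transcripts gave no such picture. Of 73 measured plastid genes, 7 were called higher, 1 lower and 65 neither, with a median log2 difference of 0.01 that turned to -0.20 after median centring. The 7 included rps16 and rps18 of the plastid ribosome (1.36 and 0.96), psbN (1.20), rpl33 (0.95), the intron maturase matK (0.69) and psaJ of photosystem I (0.66). rbcL, the large subunit of Rubisco, read 3491, 1878 and 1450 against 1139, 1342 and 1303 (0.75 ± 0.25, adjusted p = 0.026). The gene called lower was psbA, which encodes the D1 protein of photosystem II: 4455, 3467 and 2601 against 4656, 6500 and 6268 (-0.75 ± 0.22, adjusted p = 0.016). Its groups did not overlap. Without array 3 of ago1-27_submerged and array 1 of WT_dark, 14 plastid genes were called higher and 1 lower. The calls of rbcL (adjusted p = 0.15), psaJ (0.068) and matK (0.055) were lost after median centring, and that of psbA without array 2 of WT_submerged (0.064).

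Redox genes were called in both directions. Of 22 measured peroxidase, thioredoxin and antioxidant genes, 10 were called higher and 6 lower (median 0.25; 0.07 with bounds, 0.04 after centring). On the higher side, TRXF2, a plastid thioredoxin that activates Calvin cycle enzymes, read 3269, 2950 and 2042 in ago1-27_submerged, against 982, 682 and 783 in WT_submerged (1.74 ± 0.21, adjusted p = 5.5e-05). SAPX, the stromal ascorbate peroxidase, was higher by 1.67 ± 0.21, the plastid thioredoxin ty2 by 1.65 ± 0.13 and the plastid thioredoxin reductase NTRC by 0.79 ± 0.14. The mitochondrial thioredoxins TO1 and TO2 (0.91 and 0.63) and the mitochondrial peroxiredoxin PRXIIF (0.54) were also called higher. On the lower side, the secreted peroxidase Prx37 read 93.5, 62.4 and 51.9 against 2005, 2147 and 1108 (-4.65 ± 0.37, adjusted p = 2e-06). Peroxidase 71 (AT5G64120) read 371, 431 and 380 against 6205, 8474 and 3894 (-3.91 ± 0.29). GRX480, a glutaredoxin that binds TGA factors, averaged 89.7 ± 52.9 and 697 ± 279 (-3.07 ± 0.56), and the glutaredoxins GRXC1 and GRXC2 were called lower by smaller amounts (-0.71 and -0.47). ROXY2 was called lower with no fold to give, its ago1-27_submerged arrays lying under the low-signal limit. The calls of ROXY2 (adjusted p of up to 0.13, without array 2 of ago1-27_submerged), GRXC1 (0.11, without array 3 of WT_submerged), GRXC2 (0.054, without array 2 of WT_submerged) and PRXIIF (0.064, after median centring) were not held throughout.

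**Figure D3:**
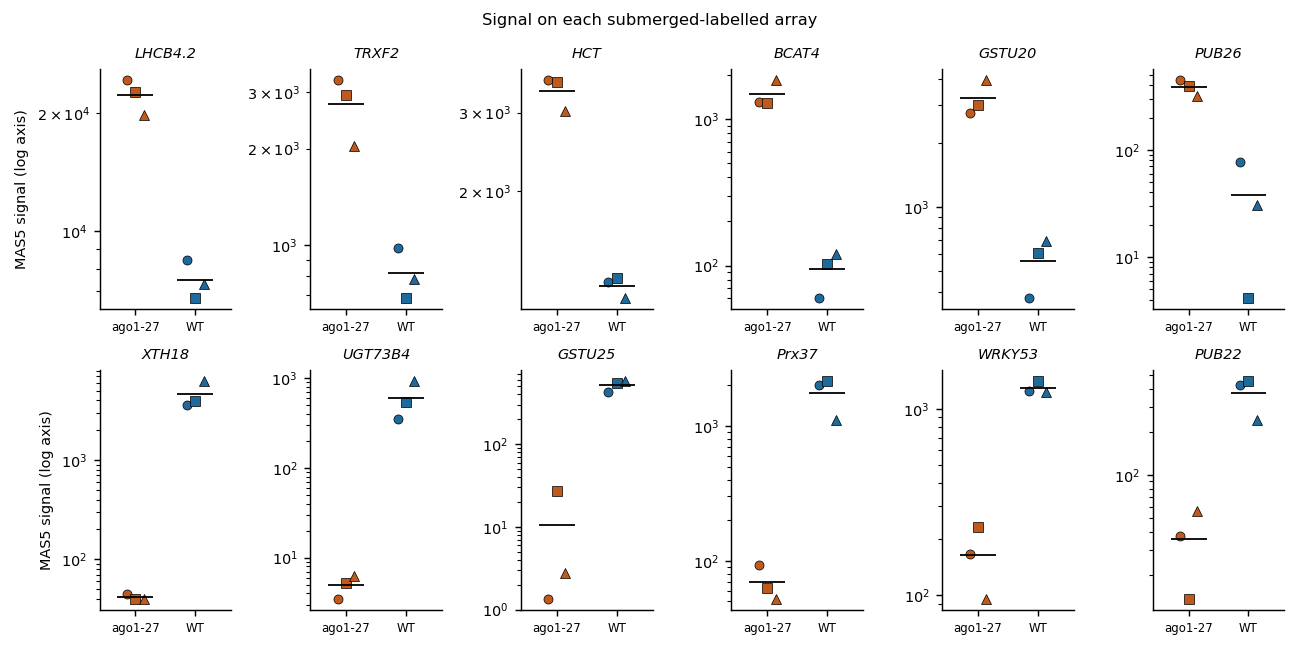
MAS5 signal (log axis, scaled per panel) of 12 genes outside the low-oxygen list on the 3 ago1-27_submerged arrays (left in each panel) and the 3 WT_submerged arrays; symbols are replicates 1 to 3 and black lines are means. The upper 6 genes are higher and the lower 6 are lower on every ago1-27_submerged array than on any WT_submerged array. Lack of overlap was part of the rule by which such genes were named.

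Most measured transcripts of the mitochondrial genome were lower on the ago1-27_submerged arrays: of 12, 9 were called lower and 0 higher, with a median of -0.63 where genes whose signal is too low to measure enter at their bound. cox1, a subunit of cytochrome c oxidase, read 201, 255 and 356 in ago1-27_submerged, against 546, 599 and 779 in WT_submerged (-1.27 ± 0.26, adjusted p = 0.0017). ccb452, of cytochrome c maturation, averaged 252 ± 33.3 and 546 ± 136 (-1.10 ± 0.21), and nad9 of complex I 129 ± 20.9 and 207 ± 55.8 (-0.66 ± 0.23). nad5, cox2 and nad1 lay under the low-signal limit on every ago1-27_submerged array and were at least 1.90-fold, 1.88-fold and 1.96-fold lower. nad6, called lower, had overlapping arrays. Without array 3 of WT_submerged, nad4L, nad6, nad9 and orfX, 4 of the 9, were not called (adjusted p = 0.13, 0.13, 0.15 and 0.051).

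Nuclear genes of respiration and central carbon metabolism went both ways. Of 9 measured genes of the respiratory chain, 4 were called higher and 1 lower (median 0.07; -0.14 after centring). SDH2-2, an iron-sulfur subunit of succinate dehydrogenase, read 821, 756 and 683 against 287, 265 and 259 (1.48 ± 0.12, adjusted p = 3e-06), and SDH2-1, its close relative, was higher by 0.38 ± 0.13. NDB1, an external NADPH dehydrogenase, was higher by 0.61 ± 0.15. The fourth, CYTC6A (0.88 ± 0.19), is a cytochrome of plastids that the list took up by its name. CYTC-2, a mitochondrial cytochrome c, was lower by -1.09 ± 0.28 (1355 ± 189 and 2880 ± 437), while CYTC-1 differed by -0.11 and was not called. Of 11 genes in the tricarboxylic acid cycle list, 2 were called higher and 3 lower (median 0.03, and -0.18 after centring). The list was picked by name and includes genes outside the cycle, such as those of ATP-citrate lyase and the plastid NADP-malate dehydrogenase. ACLB-1, a subunit of ATP-citrate lyase, was higher by 0.56 and another subunit, ACLA-3, lower by -0.38. The plastid NADP-malate dehydrogenase (AT5G58330) was higher by 0.82, and IDH-V and MDH were lower by -0.45 and -0.33. In cytosolic glycolysis and fermentation, 3 of 5 genes were called lower and 1 higher (median -0.50). Beside PDC2, GAPC2, the cytosolic glyceraldehyde-3-phosphate dehydrogenase, read 15216, 15797 and 16561 against 26032, 28415 and 25415 (-0.75 ± 0.09, adjusted p = 4.1e-05). TPI was lower by -0.30 and the enolase ENOC higher by 0.45. Smaller differences in this set were fragile: after median centring SDH2-1, ENOC and ACLB-1 were not called (adjusted p = 0.33, 0.20 and 0.11). Without array 2 of WT_submerged ACLA-3 and TPI were not called (0.12 and 0.094), nor was MDH without array 3 of WT_submerged (0.080).

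Genes in the lists of reserve use were called at about the background rate and in both directions. Among 5 starch and sugar genes, the alpha-amylase AMY1 (adjusted p = 0.033, no fold given since WT_submerged lay under the low-signal limit) and the ADP-glucose pyrophosphorylase subunit APL3 (1.02 ± 0.29) were called higher and DPE1, of maltose use, lower (-0.53 ± 0.17). AMY1 read 49.3, 85.3 and 141 against 35.9, 35 and 33.8, close to the background of the arrays. Of 13 genes in the amino acid breakdown list, 3 were called higher and 4 lower (median 0.05, and -0.16 after centring). The list was picked by symbol and includes aldehyde dehydrogenases, not all of them enzymes of that breakdown. ALDH11A3, the non-phosphorylating glyceraldehyde-3-phosphate dehydrogenase, averaged 5615 ± 1060 and 2419 ± 228 (1.20 ± 0.17), and the methionine gamma-lyase MGL was higher by 0.92. IVD, of branched-chain amino acid breakdown, was lower by -0.67, as were the aldehyde dehydrogenases ALDH7B4 (-0.94), ALDH2C4 (-0.73) and ALDH10A9 (-0.45). Of 11 autophagy genes, 3 were called lower and 0 higher (median 0.04, and -0.17 after centring). After quantile normalization 3 were called lower and 1 higher, and without the 2 arrays that stood apart 3 and 2. ATG101 (AT5G66930), a subunit of the kinase complex that starts autophagy, read 392, 341 and 358 against 1614, 1419 and 1473 (-2.05 ± 0.13, adjusted p = 2.8e-07). ATG8H and ATG8D were lower by -0.87 and -0.56, the second with overlapping arrays. The other 7 ATG8 genes differed by -0.20 to 0.44 without a call. Among them were APG8A and APG8H, the latter listed by the annotation apart from ATG8H. AMY1 was not called without array 3 of ago1-27_submerged (adjusted p = 0.13), and APL3 not without array 2 of WT_submerged (0.053). Leaving out array 3 of WT_submerged ended the calls of ATG8D (0.15), DPE1 (0.085) and ALDH10A9 (0.059), and leaving out array 1 of ago1-27_submerged those of ATG8H (0.088) and ALDH2C4 (0.076).

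Cell wall genes were called in both directions. Of 17 measured genes of wall loosening and xyloglucan, 8 were called higher and 3 lower (median 0.79; after centring 0.58, with 5 called higher and 3 lower). Of the 3 lower ones, XTH18, a xyloglucan endotransglucosylase, read 45.1, 40.1 and 39.6 in ago1-27_submerged, against 3627, 3915 and 6253 in WT_submerged. All of its ago1-27_submerged values were under the low-signal limit, so XTH18 was at least 44.8-fold lower (-6.75 ± 0.61, adjusted p = 5.4e-06). The expansin-like gene EXLB2 (AT4G30380) read 2.89, 5.19 and 1.79 against 576, 939 and 416, at least 6.11-fold lower. XTH19 read 272, 156 and 207 against 2623, 1729 and 2086 (-3.36 ± 0.24). On the higher side, XTH32 averaged 1471 ± 557 and 385 ± 89.4 (1.89 ± 0.31), EXLB1 517 ± 61.2 and 152 ± 32.2 (1.78 ± 0.27), and EXPB1 was at least 1.99-fold higher. EXPB3 read 656, 634 and 3479 against 185, 130 and 159 (2.86 ± 0.58), and EXPA15 233, 190 and 1352 against 120, 133 and 164 (1.51 ± 0.55); both were highest on array 3 of ago1-27_submerged, which stood apart. The counts without that array and array 1 of WT_dark were again 8 higher and 3 lower. Among 19 genes of cellulose, mannan and wall acetylation (median 0.18; -0.03 after centring), CSLA03, a glucomannan synthase, was higher by 1.55 ± 0.21 and TBL38 lower by -1.29 ± 0.24; TBL35 and TBL45 were called higher and TBL32 and TBL37 lower, and 13 were not called. EXPA15 lost its call under 13 alternatives, with an adjusted p of up to 0.10. TBL35, TBL37 and TBL45 were not called under some alternatives either (up to 0.086, 0.067 and 0.29).

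Of 9 measured genes of the cell cycle and DNA replication, 6 were called higher and 0 lower, with a median of 1.02 (0.82 after centring). AUR1, a kinase of the mitotic spindle, read 310, 188 and 577 in ago1-27_submerged, against 65.3, 101 and 109 in WT_submerged (1.85 ± 0.35, adjusted p = 0.0011). AUR2, its relative, was at least 2.12-fold higher, the spindle checkpoint gene BUB3.1 at least 3.14-fold and the topoisomerase TOPII at least 2.79-fold. SIM, an inhibitor of mitosis that acts in endoreduplication, was higher by 1.02 ± 0.22 and POLA3, a primase subunit, by 0.94 ± 0.24. The groups did not overlap for these 6, and array 3 of ago1-27_submerged gave the highest value of each. Without it and array 1 of WT_dark, 6 were still called higher and 0 lower, and the median was 0.90. TOPII was not called when array 3 of ago1-27_submerged alone was left out (adjusted p = 0.076).

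The cytoskeleton and chromatin gave no common direction. Of 15 genes of tubulin, actin and motors, 4 were called higher and 3 lower (median 0.19; -0.02 after centring). The beta-tubulins differed among themselves: TUB7 read 1161, 1002 and 2334 against 794, 601 and 572 (1.10 ± 0.30), whereas TUB5 read 2024, 1860 and 1789 against 4286, 3835 and 3303 (adjusted p = 4e-05) and TUB6 was lower by -0.51 ± 0.13. The alpha-tubulin TUA1 was lower by -0.97 ± 0.13. KINESIN-13A, the myosin XI-I and SPR1, a microtubule protein, were higher by 0.84, 0.80 and 0.53. Of 14 histone and chromatin genes (median 0.14; -0.07 after centring), CHR23, a chromatin remodeller, was higher by 1.63 ± 0.37 and RDM16 (AT1G28060) by 0.71, and the linker-histone-like HON4 was lower by -0.81 ± 0.15. SPR1 was not called after median centring (adjusted p = 0.060).

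Specialised metabolism contained single genes with large differences. In the glucosinolate and sulfate list, 2 of 10 were called higher and 0 lower. Without the 2 arrays that stood apart, 3 were called higher and 1 lower. BCAT4, the aminotransferase that opens methionine chain elongation for glucosinolates, read 1308, 1299 and 1847 in ago1-27_submerged, against 59.8, 103 and 120 in WT_submerged, a 16.2-fold difference (4.02 ± 0.28, adjusted p = 8.2e-07). AOP1, named for a side-chain modifying enzyme, was at least 2.07-fold higher. The glucosinolate transporters GTR1 and GTR2 differed by 0.34 and 0.30 and were not called. Of 6 phenylpropanoid and anthocyanin genes, 4 were called higher and 1 lower (median 1.39). HCT, of lignin precursor synthesis, read 3545, 3513 and 3025 against 1254, 1276 and 1151 (1.45 ± 0.12, adjusted p = 3.5e-06). DFR, dihydroflavonol reductase, was at least 2.80-fold higher, and UGT78D1 and CHIL, of flavonol synthesis, were higher by 1.44 ± 0.39 and 1.33 ± 0.35. CCR2, a cinnamoyl-CoA reductase induced in defence, was at least 3.22-fold lower.

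The UDP-glycosyltransferases, which attach sugars to small molecules, divided almost evenly: 7 of 27 were called higher, 9 lower and 11 neither (median -0.01). UGT73B4 read 3.45, 5.2 and 6.21 in ago1-27_submerged, against 355, 541 and 924 in WT_submerged, and was at least 5.64-fold lower (-6.87 ± 0.54). UGT73B5, at least 7.66-fold lower, and UGT76B1, at least 3.79-fold lower, followed; both act on compounds of pathogen defence. UGT87A2 averaged 537 ± 198 and 2001 ± 413 (-1.94 ± 0.35). Higher members included UGT88A1 with 3353 ± 584 and 1313 ± 184 (1.35 ± 0.18) and UGT71C4 (1.02 ± 0.20). Of 7 glutathione transferase genes, 3 were called higher and 1 lower (median 0.72, or 0.27 with bounds). GSTU20 read 2765, 2999 and 3938 against 373, 611 and 694 (2.56 ± 0.30, adjusted p = 4e-05), and GSTU27 and GSTU18 were higher by 1.43 and 1.28. GSTU25 read 1.34, 27.4 and 2.76 against 429, 544 and 579 and was at least 5.15-fold lower. Of 12 cytochrome P450 genes 4 were called higher and 1 lower, with CYP71B28 the furthest (1.50 ± 0.24); after median centring 1 was called higher and 1 lower, and without the 2 arrays that stood apart 7 and 0.

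Of 12 WRKY and receptor-like kinase genes, 6 were called lower and 2 higher. Of 6 WRKY factors, 3 were called lower and 1 higher (median -1.29). WRKY53, which promotes senescence and acts in defence, read 167, 232 and 95.4 in ago1-27_submerged, against 1238, 1404 and 1233 in WT_submerged (-3.06 ± 0.31, adjusted p = 1.2e-05). WRKY6 averaged 73.2 ± 32.4 and 579 ± 125 (-3.05 ± 0.46), and WRKY22, downstream of bacterial flagellin perception, 187 ± 41.9 and 874 ± 56.9 (-2.24 ± 0.24). ZAP1, which is WRKY1, was higher by 0.42 ± 0.13. Of 6 receptor-like kinase genes, 3 were called lower and 1 higher (median -0.98, or -0.11 with bounds). SD1-29, a receptor of bacterial lipid compounds, averaged 145 ± 51.1 and 842 ± 131 (-2.59 ± 0.25), and BIK1, a kinase below several immune receptors, 416 ± 23.6 and 1414 ± 199 (-1.76 ± 0.28). EFR, the receptor of elongation factor Tu, was called lower (adjusted p = 0.025) with all 3 ago1-27_submerged arrays under the low-signal limit and no fold to give. THE1, a sensor of wall integrity, was called higher by 0.40 with overlapping arrays. EFR was not called without array 3 of ago1-27_submerged (adjusted p = 0.083), and ZAP1 and THE1 not after median centring (0.19 and 0.42).

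Plant U-box ubiquitin ligases differed in sign between close relatives. Of 14 ubiquitin ligase genes, 5 were called higher and 4 lower (median 0.06; -0.15 after centring). PUB26 read 447, 391 and 320 in ago1-27_submerged, against 77.8, 4.12 and 30.7 in WT_submerged, at least 4.46-fold higher, and PUB25 was higher by 1.31 ± 0.24. Both are known to act on the immune kinase BIK1. PUB22, PUB23 and PUB24, which restrain immune responses, were lower: PUB23 read 115, 102 and 89 against 826, 1322 and 736 (-3.20 ± 0.57, adjusted p = 0.00076). PUB22 was at least 3.62-fold lower and PUB24 lower by -1.45 ± 0.19.

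Calcium-related genes were called in both directions. Of 19 measured, 5 were called lower and 4 higher (median -0.28), where 44.5% of all probe sets tested were called. After median centring, and also after quantile normalization, 7 were called lower and 3 higher. CML37, a calmodulin-like sensor, read 25.1, 28.4 and 16.9 against 507, 311 and 1297 and was at least 5.92-fold lower; CML38, already described among the low-oxygen genes, was at least 48.3-fold lower. The calmodulin-binding IQD22 and IQD23 averaged 361 ± 26.4 and 171 ± 37.9 in ago1-27_submerged, against 1194 ± 33 and 610 ± 21.7 in WT_submerged (-1.73 ± 0.11 and -1.85 ± 0.16). IQD24 and IQD19 of the same family were higher by 1.06 and 0.83. The glutamate-receptor-like channels GLR3.6 and GLR3.3 were called higher (1.80 and 0.76) and GLR3.5 lower (at least 1.29-fold). GLR3.6 was not called without array 3 of ago1-27_submerged (adjusted p = 0.071), GLR3.5 not without array 2 of WT_submerged (0.058) and IQD19 not after quantile normalization (0.060).

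Of 19 beta-glucosidase, jacalin and defence protein genes, 6 were called higher, 1 lower and 12 neither (median 0.07; -0.14 after centring). JAL23, a jacalin-related lectin, read 318, 414 and 738 in ago1-27_submerged, against 83.5, 57.3 and 115 in WT_submerged (2.49 ± 0.38, adjusted p = 0.00029). The defensin PDF1.2, a marker of jasmonate and ethylene responses, read 410, 420 and 418 against 246, 59.5 and 148 (1.69 ± 0.37). BGLU42 and BGLU16 were higher by 1.64 and 1.25. LCR67, which is defensin PDF1.1, read 3.6, 3.37 and 3.75 against 364, 376 and 247 and was at least 3.25-fold lower. In the jasmonate list, 3 of 11 were called higher and 1 lower: beside PDF1.2 the thionin THI2.2 was at least 2.23-fold higher, and PDF1B, a peptide deformylase that the list took up by its name, was higher by 0.48. OPCL1, of jasmonate synthesis, was lower by -1.37 ± 0.26. THI2.2 was not called without array 3 of WT_submerged (adjusted p = 0.071), and PDF1B not after median centring (0.29).

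Among other transcription factors, members of 1 family again parted. Of 16 bZIP genes, 5 were called higher and 3 lower; after median centring the counts were 2 and 6, and without the 2 arrays that stood apart 4 and 5. BZIP60, the factor of endoplasmic reticulum stress, read 807, 844 and 668 in ago1-27_submerged, against 2503, 3027 and 3687 in WT_submerged (-1.98 ± 0.30, adjusted p = 0.00023). BZIP61 read 1755, 1545 and 904 against 612, 477 and 383 (1.49 ± 0.29). Among folding proteins of the endoplasmic reticulum, 1 of 6 was called, the calreticulin CRT1b, with 1981 ± 383 and 889 ± 46.6 (1.14 ± 0.23). After median centring 1 was called higher and 3 lower, and the list median was -0.37. Of 10 bHLH genes, 3 were called in each direction. Factors of the iron deficiency response fell on both sides: PYE averaged 235 ± 32 and 726 ± 32.8 (-1.64 ± 0.19), ILR3 and bHLH121 were lower by -0.54 and -0.60, and bHLH34 and bHLH104 were higher by 0.83 ± 0.16 and 0.93 ± 0.12. The groups did not overlap for these 5.

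Hormone and cold genes were few. Of 10 abscisic acid and dehydration genes, 3 were called lower and 1 higher (median -0.32); without the 2 arrays that stood apart, 6 and 1. The cold-regulated COR27, a night-time regulator of the clock, was at least 4.55-fold lower, COR15B averaged 123 ± 29.4 and 272 ± 25.2 (-1.17 ± 0.19) and COR15A was lower by -0.89. COR47, a dehydrin, was higher by 1.00 ± 0.22. The gibberellin receptor GID1B read 110, 125 and 156 against 493, 659 and 718 (-2.26 ± 0.30), and GID1A was called lower by -0.82 with overlapping arrays. ARR15, a cytokinin response regulator, averaged 451 ± 196 and 124 ± 45.8 (1.85 ± 0.49), and BRH1, a brassinosteroid-responsive RING protein, was higher by 1.05 ± 0.13. Of 8 auxin genes, IAA29 (1.25 ± 0.20) and GH3.9 (at least 2.55-fold) were called higher and 1 lower. GID1A was not called under 12 alternatives (adjusted p of up to 0.17, without array 1 of ago1-27_submerged).

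Of 6 senescence genes, 4 were called lower and 1 higher (median -1.47). Apart from WRKY53 and WRKY6, YLS5 read 694, 669 and 662 in ago1-27_submerged, against 2733, 4028 and 3148 in WT_submerged (-2.27 ± 0.26, adjusted p = 3e-05). SAG101, a partner of immune receptors first named in senescence, was lower by -0.66. NOL, a chlorophyll b reductase, was called higher by 0.48 with overlapping arrays. Among 13 transporters of sugars and nutrients, 4 were called higher and 2 lower. SWEET17 and SWEET16, which move fructose across the vacuole membrane, were called higher, by 0.75 and at least 1.25-fold. SWEET11, a sucrose exporter of the phloem, read 4661, 4964 and 3428 against 6650, 7630 and 6807 (-0.71 ± 0.16), and the nitrate transporter NRT2.5 was at least 2.25-fold lower. Not called under some alternatives were NOL (adjusted p of up to 0.36, after median centring), SAG101 (0.099, without array 3 of WT_submerged) and SWEET16 (0.083, without array 1 of WT_submerged).

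Genes of membrane traffic and protein turnover were called in both directions. Of 23 genes of vesicle traffic and the vacuole, 8 were called lower and 3 higher (median -0.02, and -0.23 after centring). Over all probe sets tested, 44.5% were called, 26.7% higher and 17.8% lower. Members of the ESCRT machinery, which sorts membrane proteins for degradation, stood on both sides: VPS2.1 averaged 627 ± 27.1 and 1762 ± 408 (-1.47 ± 0.21), VPS60.1, VPS20.1 and VPS46.2 were lower by -1.14, -0.86 and -0.84, and VPS2.2 read 219, 238 and 594 against 54.1, 81.4 and 94.3 (2.07 ± 0.55). SEC1B, of vesicle fusion, was lower by -1.94 ± 0.30, and EXO84B and SEC15B of the exocyst by -0.54 and -0.51. Of 24 proteases and inhibitors, 10 were called higher and 3 lower (median 0.52). Of the 10 higher genes, 8 were serine carboxypeptidase-like, among them scpl50 with 775 ± 134 and 318 ± 85 (1.31 ± 0.23) and SCPL34 with 599 ± 143 and 284 ± 36 (1.05 ± 0.21). The subtilases SBT3.5 (-2.32 ± 0.39) and SBT3.3 (at least 2.26-fold) and scpl16 (at least 2.27-fold) were lower. The plastid chaperonin subunit Cpn60beta2 was higher by 1.28 ± 0.18, and RNA splicing contributed PRP39, with 883 ± 144 and 2134 ± 42.4 (-1.28 ± 0.14), against LSM3A and LSM1B, which were higher by 0.88 and 0.65. SEC15B was not called without array 1 of WT_submerged (adjusted p = 0.077) and VPS20.1 not without array 2 of ago1-27_submerged (0.080). Several of the serine carboxypeptidase-like calls were fragile too. Without array 2 of WT_submerged, SCPL27, scpl25 and scpl35 were not called (0.080, 0.060 and 0.081). After median centring, scpl26 and scpl42 were not called (0.053 and 0.073).

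**Figure D4:**
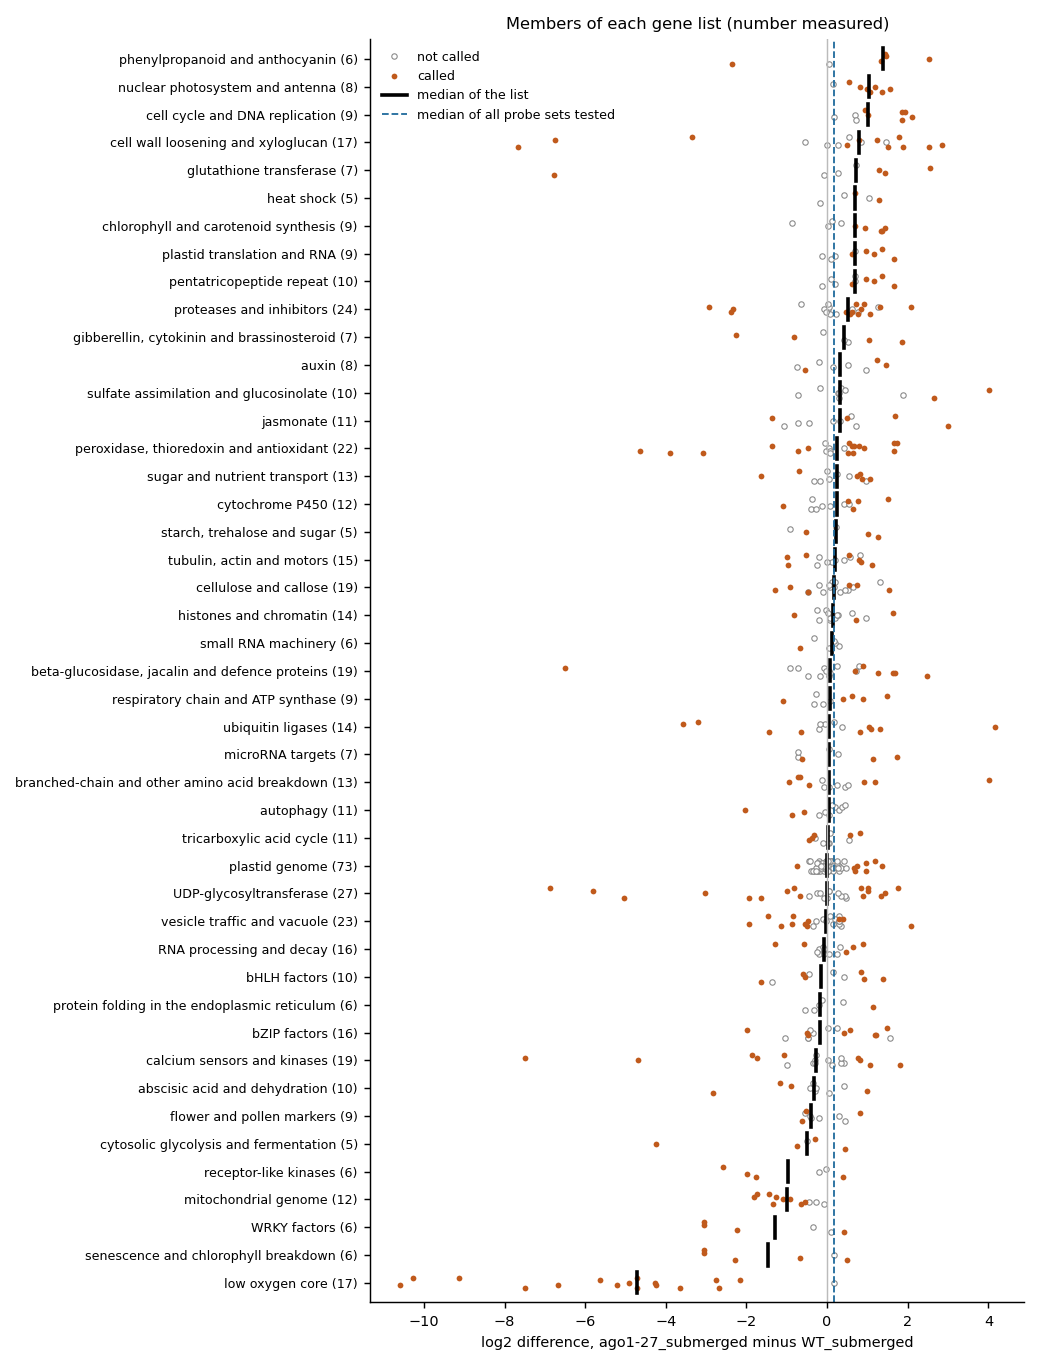
Log2 difference of ago1-27_submerged minus WT_submerged for every measured member of the 45 gene lists with 5 or more measured genes, ordered by list median; filled points passed the test, open points did not, black bars are list medians and the dashed line is the median of all probe sets, 0.17. The low-oxygen list lies at -4.72 and senescence at -1.47 at the lower end, and phenylpropanoid genes at 1.39 at the upper end, while most lists straddle the dashed line.

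Among single genes outside the low-oxygen list, the 20 largest rises and 20 largest falls were taken from called genes with no overlap and a mean of 200 or more in the higher group, which 1679 higher and 1216 lower genes met. They were ranked by fitted log2 differences, which for genes under the low-signal limit in a group are not measured sizes. Of the 20 falls, 14 bear a locus number without a gene name in the annotation; AT2G22880 read 4.18, 4.15 and 4.78 in ago1-27_submerged, against 2118, 1955 and 2754 in WT_submerged, at least 22.6-fold lower (-9.01 ± 0.55, adjusted p = 2.8e-07). AT2G17850 read 66.1, 56.6 and 311 against 12775, 11501 and 10990 (-6.80 ± 0.47). The named ones were EXLB2, UGT73B4, GSTU25, XTH18, LCR67 and UGT76B1, all described above. Of the 20 rises, BCAT4, PUB26 and ZW9 have names; ZW9 read 347, 555 and 282 against 24.8, 22.4 and 50.8, at least 4.43-fold higher. AT3G09580 read 1117, 983 and 615 against 94.9, 79.5 and 64.1 (3.48 ± 0.23), the rise with the smallest standard error among the 20. At the other end, the 5 strongly hybridised genes nearest to no difference included FDH, formate dehydrogenase, with 5155 ± 996 and 5158 ± 832 (-0.01 ± 0.16), and PGY1, a ribosomal protein, with 5918 ± 637 and 5914 ± 373 (-0.00 ± 0.13).

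The dark-labelled arrays carried much the same difference between the genotype labels. There 7834 probe sets (52.9%) were called, 4752 (32.1%) higher and 3082 (20.8%) lower, and the median was again 0.17. Of the calls under submergence, 5285 were called in the same direction in the dark, which was 80.2% of the submerged and 67.5% of the dark calls, and 18 in the opposite direction. The contrasts share no array but share the estimate of the spread. The test of the difference between the contrasts called 42 probe sets (0.284%), 21 in each direction, of which 22 name 1 gene, against 2187 (14.8%) at an unadjusted p under 0.05 and 7759 (52.4%) so in the submerged contrast itself. This count depends on single arrays: it was 5 without array 1 of WT_submerged, 726 without array 1 of WT_dark, and 1200 without that array and array 3 of ago1-27_submerged. The interaction is therefore a short list of genes, not a measure of how much the contrasts differ.

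Within it, the gene pair AT4G12500 and AT4G12490 was called lower under submergence and not called in the dark. AT4G12500 read 149, 62.9 and 82.2 in ago1-27_submerged and 1691, 3196 and 1092 in WT_submerged, but 121, 231 and 139 in ago1-27_dark and 167, 238 and 244 in WT_dark (interaction -3.86 ± 0.56, adjusted p = 0.016). AT4G12490 gave -3.03 ± 0.56 (adjusted p = 0.046), with 343 ± 116 and 2775 ± 1354 on the submerged arrays. CHI (AT2G43570), a chitinase gene, was higher under submergence, with 374, 613 and 359 against 130, 150 and 141, and differed by -0.09 in the dark (interaction 1.73 ± 0.31, adjusted p = 0.046). FHL, of phytochrome A nuclear import, was lower in both contrasts but less so under submergence, with 89.8 ± 9.59 and 263 ± 28.6 there (-1.55 against -3.63 in the dark; interaction 2.08 ± 0.27, adjusted p = 0.015). BGLU25, a beta-glucosidase, averaged 265 ± 74.9 and 255 ± 71 under submergence, a difference of 0.05 that was not called, and differed by -2.30 in the dark (interaction 2.36 ± 0.33, adjusted p = 0.015). AT1G73600 was called higher under submergence (0.97) and lower in the dark (-1.15; interaction 2.12 ± 0.31). Each of these 6 interaction calls was lost under at least 1 alternative. Without array 1 of WT_submerged the adjusted p was 0.14 for AT4G12490, 0.16 for CHI, 0.052 for FHL and 0.053 for BGLU25, AT1G73600 and AT4G12500.

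**Figure D5:**
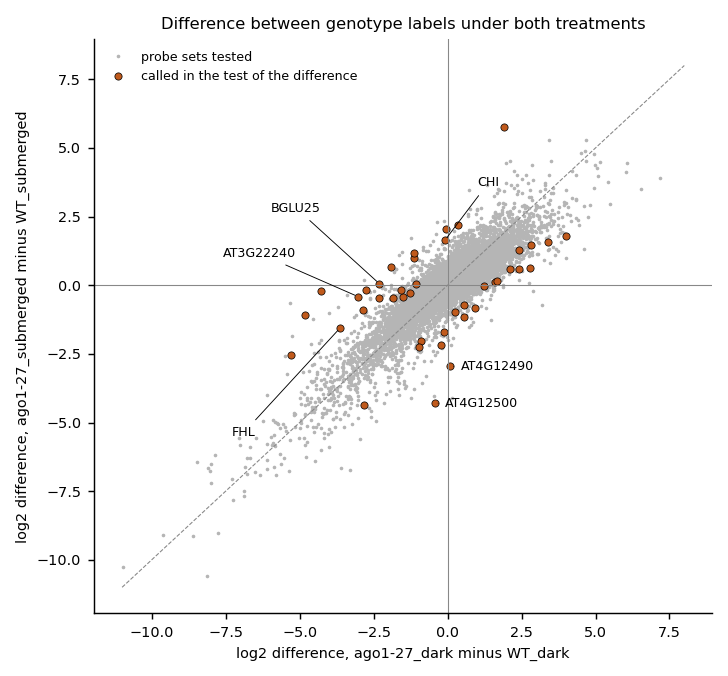
Log2 difference between the genotype labels under submergence (vertical axis, ago1-27_submerged minus WT_submerged) against that in the dark (horizontal axis, ago1-27_dark minus WT_dark) for the 14812 probe sets tested. The 42 probe sets called in the test of the difference are filled circles, 6 of them named, and the dashed line marks equal differences; most probe sets lie along it.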

How the data were processed

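The authors deposited 1 linear intensity signal per probe set and array; per the submitters' processing notes these are MAS5 signals, and the deposited columns share a trimmed mean of 500 after the 2% extremes at each end are left out. No further detail of scaling is given in the sources used here. Array medians ranged from 134 to 207, and the number of arrays, 3 a group, limits the precision. Whether replicates came from separate plantings is not stated, so p-values measure the spread between these pools of plants.

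Signals were taken to log2 without a pseudocount after a filter that kept probe sets above the 40th percentile of all 22810 probe sets on at least 3 of 12 arrays, and were fitted with limma 3.58.1 (R 4.3.3; 4 group means, a variance trend on intensity, 8 residual degrees of freedom and 4.61 from the prior) with Benjamini-Hochberg adjustment over 14812 probe sets. A group under the 40th percentile on all its arrays has only a bound: its mean was taken over the higher, per array, of that percentile and the signal, and the ratio is written as "at least". On simulated data, the submerged contrast recovered 62% of 100 planted 2-fold and 91% of 100 planted 4-fold changes of 14812 probe sets, with 11 false calls. The simulation drew independent noise for each array and changed few probe sets, whereas many were called here. These shares therefore check the fit and do not measure the power of the real contrast.

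Names came from the platform's annotation: 13523 probe sets name 1 gene, of which 13446 matched RefSeq, 493 name several and 8730 none. The members and the gene lists were chosen with earlier results of these data known. Lists with 5 or more measured genes are described. Plastid genes were taken by their RefSeq chromosome, and mitochondrial genes by the platform's names that have no RefSeq match, since locus patterns did not find them; some matches by name alone were removed. Named genes were the 20 largest rises and 20 largest falls (called, no overlap, mean of 200 or more in the higher group, not low-oxygen genes), in each list the 4 largest called differences without overlap and the 2 largest of the other direction, up to 10 interaction calls in each direction, 6 low-oxygen genes, the 5 nearest to no difference with a mean of 2000 or more, and the control probe sets; other list members were named after their values were seen. Same-numbered arrays deviated together, with a correlation above 0.1, in 8 of 18 pairs (-0.28 to 0.35), so numbers were not taken as pairs. Alternatives were array weights, other scalings, filters, floors and pseudocounts, the 6 submerged arrays alone, a replicate block and arrays left out in turn.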

Additional observations from a re-analysis of the deposited data

Results flagged for a closer look

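The difference between the genotype labels differed between submergence and darkness, by the interaction term of the fit (adjusted p of 0.013 to 0.046), for 18 named genes. In 10 of them the interaction was negative: AT4G12500 (-3.86), AT4G12490 (-3.03), AT2G05540 (-2.15), AT5G05250 (-1.94), AT4G18970 (-1.82), AT3G50560 (-1.76), AT5G08350 (-1.53), AT2G39980 (-1.52), AT1G61260 (-1.52) and AT3G10720 (-1.30). In 8 it was positive: AT3G22240 (2.60), AT5G46230 (2.56), BGLU25 (2.36), AT1G73600 (2.12), FHL (2.08), Hop2 (1.86), CHI (1.73) and AT3G27770 (1.40). AT2G05540 differed by 0.62 under submergence and 2.77 in the dark, AT3G22240 by -0.42 and -3.02, and AT5G46230 by 0.65 and -1.92. Hop2, of meiotic recombination, differed by -0.45 and -2.31. Of the 18 interaction calls, 16 were lost under at least 1 alternative and 2, AT2G05540 and AT3G50560, were kept under all. Those lost under 9 or more alternatives were AT2G39980, CHI, AT5G08350, AT4G12490, AT1G61260, AT4G18970 and AT3G10720, with an adjusted p of up to 0.16.

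The control probe set U12639, which no comparison uses, had a mean signal of 27800.6 on the 6 arrays labelled dark and lay between 1.74 and 44.7 on the 6 labelled submerged. It read 23.4, 9.31 and 23.6 in ago1-27_submerged, against 1.74, 44.7 and 6.07 in WT_submerged. What it detects is not described in the sources used here. It parts the arrays by the treatment label, whereas the low-oxygen genes part them by the genotype label.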

How the results depend on the processing

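Of the 339 called genes followed, 0 changed direction under the alternatives run, and 242 were called under every one while 97 were not, among them 24 of the 208 at 2-fold or more. The majority direction of all calls and the median of 12 of 45 lists did turn under median centring. The count of probe sets called under submergence, 6591, ranged from 5330 with a stricter filter to 7983 with array weights, and from 5220 to 7176 with 1 array left out; with the replicate block it was 6589, and the numbers were not taken as pairs. At 2-fold or more, 3038 became 2205 to 3380, and 3049 with the replicate block. The share of calls that were higher, 60%, was 60.1% with the replicate block, 54.4% after quantile normalization and 42.0% after median centring (2585 higher and 3567 lower). The interaction count of 42 was 1798 with array weights, 1200 without the 2 arrays that stood apart, 83 with a floor, 78 with a stricter filter, 50 with the replicate block, 26 without an intensity trend and 14 after median centring, and it ranged from 5 to 726 with 1 array left out; the cause was not tested. Signals near the 40th percentile limit the precision of low genes: 684 probe sets in ago1-27_submerged and 663 in WT_submerged lay under it on all 3 arrays, 70 on all 6.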

Other observations

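The 16 genes that follow lie outside the lists and were chosen after their values were seen, so they stand as single values. PRL, an MCM helicase subunit, read 281, 289 and 773 in ago1-27_submerged, against 142, 182 and 125 in WT_submerged (1.43 ± 0.36), and 3xHMG-box2, which binds mitotic chromosomes, 345, 238 and 1182 against 81.5, 158 and 110 (2.03 ± 0.51). Both were highest on array 3 of ago1-27_submerged, which stood apart. The histone chaperone ASF1B was also called higher, with 474 ± 51.2 and 197 ± 22.4 (adjusted p = 0.00022). The kinase Haspin (at least 1.16-fold) and 3xHMG-box1 (1.17, overlapping arrays) were called but missed the threshold under at least 1 alternative.

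Among genes of the chloroplast were CaS, a thylakoid protein, with 11931, 14354 and 8842 against 5467, 3498 and 4415 (1.39 ± 0.28), NdhN of the NDH complex (1.33 ± 0.22), the photosystem II assembly factor PAM68 (1.20 ± 0.24), CCB3 of cytochrome b6f assembly (1.60 ± 0.39) and LIL3:1 (1.02 ± 0.17). The methionine sulfoxide reductases MSRB5 and MSRB6 were higher, MSRB5 with 1464 ± 296 and 390 ± 75.8 and MSRB6 at least 3.55-fold, while MSRB9 was lower with 182 ± 69 and 660 ± 216 (-1.87 ± 0.45). Among tetraspanins, TET3 was higher by 1.00 ± 0.17, TET8 lower with 1439 ± 244 and 4118 ± 810 (-1.51 ± 0.20) and TET9 at least 1.44-fold lower.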
